A study of Mus musculus with 12 samples.

Results

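The genes described here encode quinone, carbonyl and aldo-keto reductases, together with partner enzymes that open epoxides or split thioesters, and they were followed in bone marrow-derived macrophages (BMDMs) of mice with and without the inducible nitric oxide synthase gene Nos2. The list holds 10 genes: the quinone reductases Nqo1 and Nqo2, the carbonyl reductases Cbr1 and Cbr3, the aldo-keto reductases Akr1a1, Akr1b3 and Akr1b8, the prostaglandin reductase Ptgr1, the epoxide hydrolase Ephx1 and the esterase Esd. Of these, 8 were measured by a probe set (a group of short probes for 1 transcript) that names no other gene, among 18193 genes measured in that way. No probe set stood under the symbol Akr1b3 in the array's annotation, and the 3 probe sets of Esd also name the pseudogene Esd-ps, so neither was analysed here. The missing symbol does not show that the array lacks probes for Akr1b3. The measured genes carried 13 single-gene probe sets, and the 1 with the highest mean over all arrays stood for its gene.

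RNA was hybridised to 12 Affymetrix whole-genome mouse arrays in 4 groups of 3, which the labels call biological replicates. They were stimulated Nos2-/- BMDMs, stimulated wild-type (WT) BMDMs, untreated Nos2-/- BMDMs and untreated WT BMDMs. WT mice were C57BL/6 and Nos2-/- mice were B6.129P2-Nos2tm1Lau/J, a germline mutation carried by every cell type of the donor, and the study used mice between 6 and 10 weeks old. All 4 groups were grown from bone marrow with the growth factor M-CSF, and the stimulated groups received 100 ng/mL lipopolysaccharide (LPS) and 50 ng/mL interferon γ (IFNγ) for 8 h. The methods give the untreated groups PBS vehicle, whereas their labels say that they were taken before stimulation. Whether replicates came from separate animals is not stated, so p-values measure the spread between these arrays.

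Quinones, aldehydes, ketones and epoxides are electrophiles that arise from oxidised lipids and sugars and from foreign chemicals, and they can attach to proteins and DNA. Quinone, carbonyl and aldo-keto reductases draw on NADPH or NADH to turn them into less reactive hydroquinones and alcohols, and epoxide hydrolase adds water to epoxides to give diols. In many tissues several of these genes are targets of Nrf2, a transcription factor held back by Keap1 until electrophiles or oxidants modify Keap1, and Nrf2 acts through a DNA motif called the antioxidant response element. In activated macrophages such enzymes are known for handling lipid aldehydes and bioactive eicosanoids.

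Signals are robust multi-array average (RMA) values on the log2 scale, so a difference of 1 is a doubling. They spanned 2.13 to 14.73, with array medians between 5.14 and 5.21 and a lowest correlation within a group of 0.996. Nos2 itself read 7.45 to 7.88 in stimulated Nos2-/- arrays, 9.64 to 9.81 in stimulated WT arrays, 5.15 to 5.41 in untreated Nos2-/- arrays and 5.40 to 5.65 in untreated WT arrays. Whether its probe set lies in the deleted part is not given in the sources used here, so this signal does not check the genotype. All 8 macrophage markers (Adgre1, Csf1r, Cd68, Itgam, Fcgr1, Mertk, Lyz2 and Cd14) were above the median gene, with array means of 12.32 to 12.43, and none differed between stimulated Nos2-/- and stimulated WT arrays (limma, 0 of 8 at an unadjusted p under 0.05). Of 37 measured markers of other cell types, 10 were above the median gene. Of the 37 only Ppbp, a megakaryocyte marker, was called between the stimulated genotypes, at a log2 fold change of −1.24 (limma, adjusted p = 0.0105). The megakaryocyte markers averaged 6.95 to 7.29 on the stimulated Nos2-/- arrays, 7.35 to 7.70 on the stimulated WT arrays, 7.86 to 8.02 on the untreated Nos2-/- arrays and 7.85 to 7.94 on the untreated WT arrays. Their part in the results below was not tested. In bulk RNA, fewer cells of a type and less RNA per cell cannot be told apart.

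The promoters of the 4 genes on which the results turn are shown because these genes were lower together in stimulated Nos2-/- macrophages. Each is the RefSeq window (GRCm38.p6) that runs 5′ to 3′ along the gene from 250 bases before its start to 50 after it, and such windows were found for 9 of the 10 genes, with a pair for Nqo2 and none for Akr1b3. Nqo1 lies at chr8:107403156-107403455 on the minus strand, Cbr3 at chr16:93682969-93683268 on the plus strand, Akr1b8 at chr6:34353896-34354195 on the plus strand and Ptgr1 at chr4:58987029-58987328 on the minus strand. Capitals mark matches, on either strand, to the GC box GGGCGG and to TATAAA.
Nqo1: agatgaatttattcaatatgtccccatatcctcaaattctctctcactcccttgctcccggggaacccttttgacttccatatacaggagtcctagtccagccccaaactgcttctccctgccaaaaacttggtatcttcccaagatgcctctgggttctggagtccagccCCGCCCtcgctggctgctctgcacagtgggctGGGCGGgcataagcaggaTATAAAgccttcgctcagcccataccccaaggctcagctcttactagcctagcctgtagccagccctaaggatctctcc
Cbr3: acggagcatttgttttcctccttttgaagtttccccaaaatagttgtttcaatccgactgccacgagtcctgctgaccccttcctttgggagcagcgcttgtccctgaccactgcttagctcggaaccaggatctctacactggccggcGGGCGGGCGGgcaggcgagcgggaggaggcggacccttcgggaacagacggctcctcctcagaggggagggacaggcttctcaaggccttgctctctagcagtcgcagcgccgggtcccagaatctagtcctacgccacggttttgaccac
Akr1b8: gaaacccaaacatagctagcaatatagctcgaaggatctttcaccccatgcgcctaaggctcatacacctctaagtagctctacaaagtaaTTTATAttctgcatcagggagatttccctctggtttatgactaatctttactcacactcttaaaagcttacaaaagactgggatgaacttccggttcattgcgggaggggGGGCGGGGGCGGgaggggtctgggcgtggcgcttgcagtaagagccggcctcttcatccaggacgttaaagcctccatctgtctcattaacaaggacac
Ptgr1: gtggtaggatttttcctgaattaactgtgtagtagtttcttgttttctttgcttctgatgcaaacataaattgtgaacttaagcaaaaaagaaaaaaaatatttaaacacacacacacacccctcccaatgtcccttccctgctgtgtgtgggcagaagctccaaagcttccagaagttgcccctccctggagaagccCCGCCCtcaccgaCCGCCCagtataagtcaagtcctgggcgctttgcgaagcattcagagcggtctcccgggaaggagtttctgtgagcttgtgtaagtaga

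The core of the antioxidant response element, TGACNNNGC, was searched on both strands and had no match in any of the 10 windows, against 12.4% of all 32851 promoter windows. These letters were looked for only close to the start, and no match says nothing of the factor. A GC box was present in 7 of the 10 windows, against 35.7% of all windows, and in all 4 printed windows. In Nqo1 it began 79 and 47 bases before the start, in Cbr3 101 and 97, in Akr1b8 49 and 43, and in Ptgr1 52 and 39, and the matches in Cbr3 overlap. TATAAA was present in 3 of the 10 windows, against 13.6% of all windows, and in Nqo1 it stood 29 bases before the start on the gene's strand. The motifs were chosen after the expression values were known. No match to any of the 3 motifs was found in the windows of Cbr1 and Akr1a1.

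Whether loss of Nos2 changed these genes in activated macrophages was addressed by setting stimulated Nos2-/- against stimulated WT BMDMs. Cbr3, Ptgr1, Akr1b8 and Nqo1 were lower in stimulated Nos2-/- macrophages, by 2.44-fold to 3.53-fold, and the other 4 measured genes were not called. Thus 4 of 8 were called lower, against 1.91% of all genes, and 0 of 8 higher, against 1.03% of all genes. The genes were listed with earlier results of these data known, so this and later shares describe the list and do not test it. The median log2 fold change was −0.76 over the 8 genes and −0.01 over all genes. A gene was called when its adjusted p (limma with Benjamini-Hochberg adjustment over all 18193 genes) was under 0.05, with no minimum fold.

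Cbr3, a cytosolic carbonyl reductase that takes NADPH, had log2 signals of 7.98, 8.04 and 8.04 in stimulated Nos2-/- arrays and 9.96, 9.71 and 9.86 in stimulated WT arrays. The groups were well apart, since the highest Nos2-/- array was more than 1 log2 unit below the lowest WT array. Its log2 fold change of −1.82 ± 0.07 (SE, n = 3 each) was the fifth lowest of all 18193 genes (95% confidence interval −1.97 to −1.67, limma adjusted p = 9.8e-09). Ptgr1 reduces the double bond beside a carbonyl in oxidised prostaglandins and in lipid aldehydes, and also oxidises leukotriene B4. It read 8.68, 8.57 and 8.56 in stimulated Nos2-/- arrays and 10.11, 10.16 and 10.12 in stimulated WT arrays. Every Nos2-/- array was below every WT array, and the log2 fold change was −1.53 ± 0.08 (SE; 95% confidence interval −1.69 to −1.36, limma adjusted p = 6.0e-08).

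Akr1b8 is an aldose reductase-like enzyme that reduces aldehydes. Its signals were 7.86, 7.71 and 7.74 in stimulated Nos2-/- arrays and 9.23, 9.26 and 9.28 in stimulated WT arrays. The arrays of each genotype lay close together and the genotypes did not overlap, with a log2 fold change of −1.49 ± 0.07 (SE; 95% confidence interval −1.63 to −1.34, limma adjusted p = 2.5e-08). Nqo1 encodes the quinone reductase that takes quinones to hydroquinones without a semiquinone intermediate and is widely used as an Nrf2 target. It read 5.58, 5.18 and 5.07 in stimulated Nos2-/- arrays and 6.47, 6.50 and 6.70 in stimulated WT arrays. Nqo1 was the dimmest of the 4, with its stimulated Nos2-/- signals close to the array medians, and had the widest interval. Its log2 fold change was −1.29 ± 0.11 (SE; 95% confidence interval −1.53 to −1.04, limma adjusted p = 1.8e-05).

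**Figure D1:**
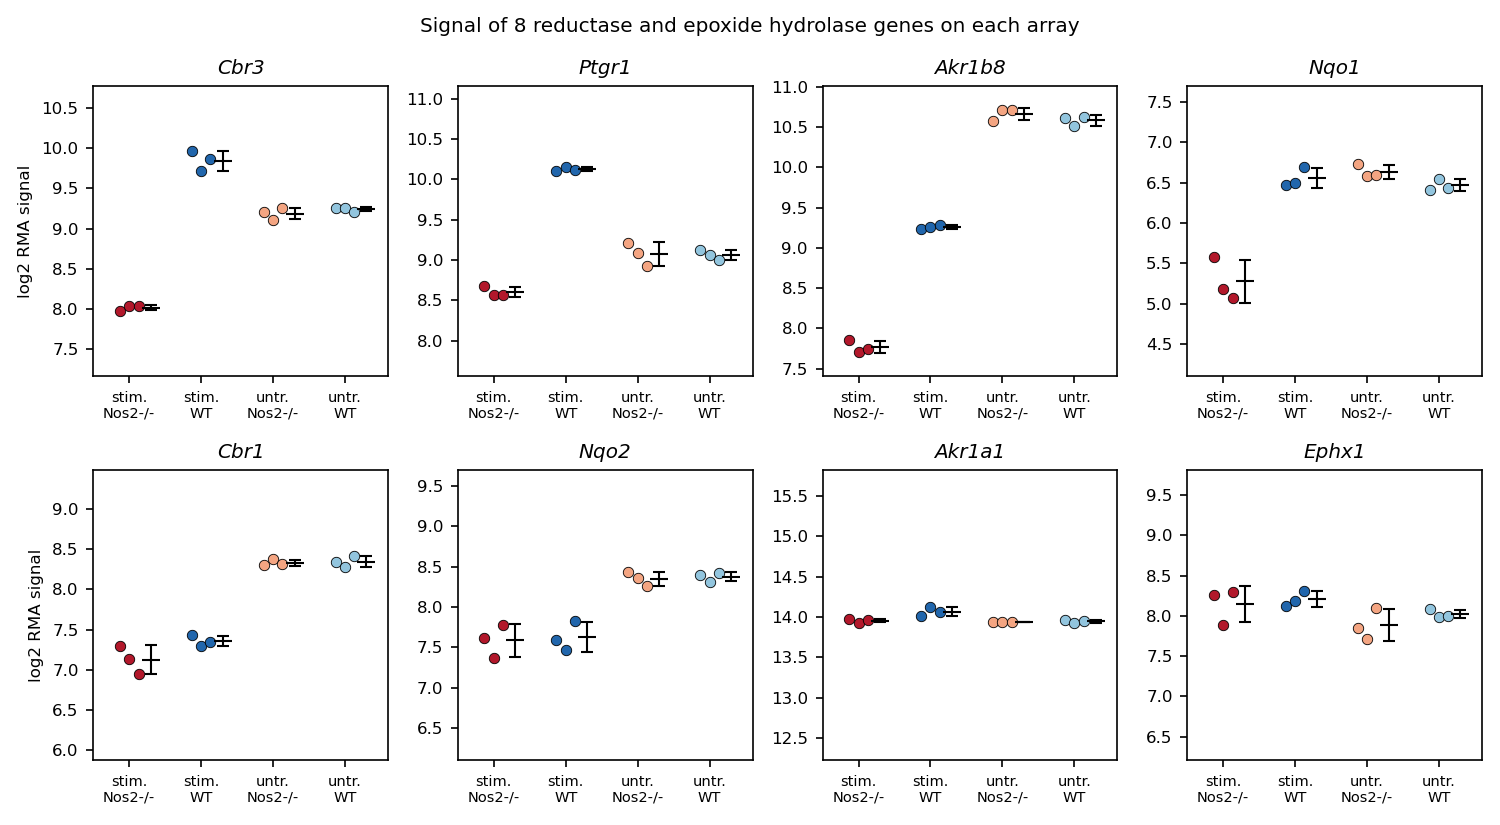
Log2 RMA signal (y axis, the same span in every panel) of 8 genes on each of 12 arrays, in the groups stimulated Nos2-/-, stimulated WT, untreated Nos2-/- and untreated WT (x axis); points are arrays, and the bar beside them is the mean with its SD (n = 3). For Cbr3, Ptgr1, Akr1b8 and Nqo1 the 3 stimulated Nos2-/- arrays sit below all 9 others.

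The remaining reductases and Ephx1 were not called between the stimulated genotypes. Cbr1, a broad-range carbonyl reductase whose gene lies near Cbr3 on chromosome 16, read 7.30, 7.13 and 6.95 in stimulated Nos2-/- arrays and 7.43, 7.30 and 7.35 in stimulated WT arrays. The groups met at 7.30, and the log2 fold change was −0.23 (95% confidence interval −0.41 to −0.05, limma adjusted p = 0.192). Nqo2, a quinone reductase that uses dihydronicotinamide riboside in place of NADPH, read 7.62, 7.37 and 7.77 in stimulated Nos2-/- arrays and 7.59, 7.46 and 7.83 in stimulated WT arrays. These overlapped fully, with a log2 fold change of −0.04 (95% confidence interval −0.27 to 0.19, limma adjusted p = 0.902).

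Ephx1, the microsomal epoxide hydrolase, read 8.26, 7.89 and 8.29 in stimulated Nos2-/- arrays and 8.12, 8.19 and 8.31 in stimulated WT arrays, with a log2 fold change of −0.06 (95% confidence interval −0.30 to 0.19, limma adjusted p = 0.874). Akr1a1, the aldehyde reductase that also acts on sugar aldehydes, read 13.97, 13.93 and 13.96 in stimulated Nos2-/- arrays and 14.01, 14.12 and 14.06 in stimulated WT arrays. Its groups did not overlap, but the log2 fold change of −0.11 was not called (95% confidence interval −0.23 to 0.01, limma adjusted p = 0.38). Akr1a1 signals were close to the highest value on any array, 14.73, where a difference in RNA can be compressed. Together, 5 of the 8 genes had stimulated groups that did not overlap, all lower in Nos2-/-, against 8.89% of all genes in that direction and 8.21% in the other.

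**Figure D2:**
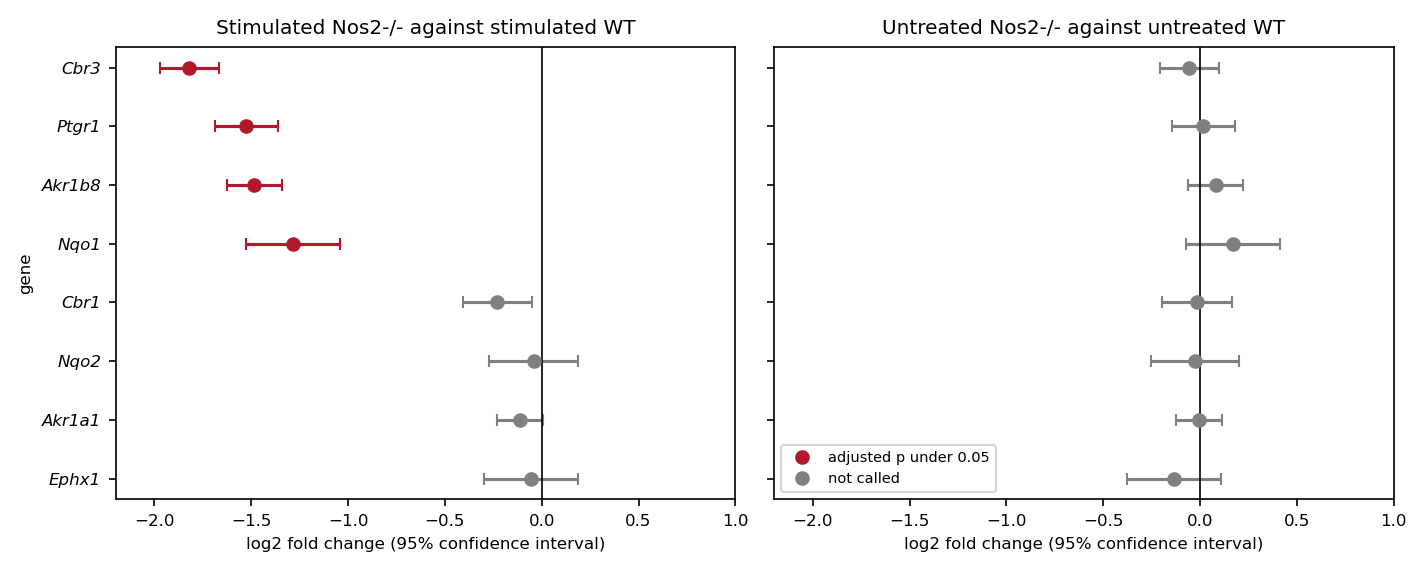
Log2 fold change (x axis, with 95% confidence interval) of each gene (y axis) in stimulated Nos2-/- against stimulated WT (left) and untreated Nos2-/- against untreated WT (right); red marks an adjusted p under 0.05 and grey a gene not called. On the left 4 genes lie between −1.82 and −1.29, and on the right all 8 lie between −0.14 and 0.17.

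Before stimulation none of the 8 genes was called between the genotypes (limma, 0 of 8 at an adjusted p under 0.05 and 0 of 8 at an unadjusted p under 0.05). Across all genes 0.0055% were called higher and 0.0055% lower, so calls were rare over the whole array. Log2 fold changes ran from −0.14 for Ephx1 to 0.17 for Nqo1. Cbr3 read 9.20, 9.11 and 9.25 in untreated Nos2-/- arrays and 9.26, 9.26 and 9.21 in untreated WT arrays, and Ptgr1 read 9.21, 9.09 and 8.92 in untreated Nos2-/- arrays and 9.12, 9.06 and 9.0 in untreated WT arrays. Both overlapped, with intervals of −0.21 to 0.10 for Cbr3 and −0.15 to 0.18 for Ptgr1. Akr1b8 read 10.58, 10.71 and 10.71 in untreated Nos2-/- arrays and 10.61, 10.51 and 10.63 in untreated WT arrays (interval −0.06 to 0.22). Nqo1 read 6.73, 6.58 and 6.59 in untreated Nos2-/- arrays and 6.41, 6.55 and 6.44 in untreated WT arrays. It was the only one of the 8 whose untreated groups did not overlap, with Nos2-/- higher. Such a gap was found for 6.24% of all genes in that direction and 6.4% in the other, and its interval ran from −0.07 to 0.41.

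The response of each genotype to LPS and IFNγ was then compared. In Nos2-/- macrophages 6 of 8 genes fell on stimulation and none rose, and in WT macrophages 3 fell and 2 rose. Calls were common in these comparisons. In Nos2-/- macrophages 28.2% of all genes were called lower and 26.3% higher, and in WT macrophages 28.4% were called lower and 29.6% higher. The median log2 fold change over the 8 genes was −0.96 in Nos2-/- macrophages (0.05 over all genes) and 0.11 in WT macrophages (0.07 over all genes). Stimulated and untreated arrays did not overlap for 6 of 8 genes in Nos2-/-, all lower (29.9% of all genes lower and 30.5% higher), and for 7 of 8 in WT, 3 lower and 4 higher (30.4% of all genes lower and 34.7% higher). Cell type markers moved with stimulation as well. Of the 8 macrophage markers 2 were called higher and 5 lower in each genotype (limma). Their log2 fold changes ran from −0.91 to 1.27 in Nos2-/- and from −0.87 to 1.24 in WT. Markers of other cell types also moved. Of 7 neutrophil markers 3 were called higher in each genotype (limma), and their array means were 7.59 to 7.84 in stimulated and 6.75 to 7.25 in untreated Nos2-/- arrays, and 7.54 to 7.69 in stimulated and 6.63 to 7.07 in untreated WT arrays. Of 4 megakaryocyte markers 2 were called lower in each genotype, and 1 was called higher in WT. Of 7 fibroblast markers, all below the median gene, 3 were called higher in Nos2-/- and 4 in WT, with array means of 4.5 in stimulated and 4.21 to 4.28 in untreated Nos2-/- arrays, and 4.47 to 4.5 in stimulated and 4.19 to 4.2 in untreated WT arrays. In each of the remaining 5 lists 0 to 3 markers were called per genotype. Their part in the responses was not tested.

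Ptgr1 and Cbr3 moved in opposite directions in the genotypes. Ptgr1 averaged 8.60 ± 0.07 in stimulated and 9.07 ± 0.14 in untreated Nos2-/- arrays (SD, n = 3 each), a log2 fold change of −0.47 ± 0.08 (SE; limma adjusted p = 9.3e-05). In WT arrays it averaged 10.13 ± 0.03 when stimulated and 9.06 ± 0.06 when untreated, a log2 fold change of 1.07 ± 0.08 (SE; limma adjusted p = 2.2e-08). Cbr3 averaged 8.02 ± 0.04 in stimulated and 9.19 ± 0.07 in untreated Nos2-/- arrays, at a log2 fold change of −1.17 ± 0.07 (SE; limma adjusted p = 4.3e-09). In WT arrays it averaged 9.84 ± 0.13 when stimulated and 9.24 ± 0.03 when untreated, at 0.60 ± 0.07 (SE; limma adjusted p = 5.1e-06). For both genes the stimulated arrays were all below the untreated ones in Nos2-/- and all above them in WT.

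Akr1b8 fell in both genotypes, and further in Nos2-/-. It averaged 7.77 ± 0.08 in stimulated and 10.67 ± 0.07 in untreated Nos2-/- arrays, a fall of 7.44-fold (log2 fold change −2.90 ± 0.07, SE; limma adjusted p = 2.4e-13). In WT arrays it averaged 9.25 ± 0.03 when stimulated and 10.58 ± 0.06 when untreated, a fall of 2.51-fold (log2 fold change −1.33 ± 0.07, SE; limma adjusted p = 5.4e-10). Nqo1 averaged 5.27 ± 0.27 in stimulated and 6.63 ± 0.09 in untreated Nos2-/- arrays, a log2 fold change of −1.36 ± 0.11 (SE; limma adjusted p = 1.2e-07). In WT arrays it averaged 6.56 ± 0.13 when stimulated and 6.47 ± 0.07 when untreated, and the log2 fold change of 0.09 was not called (95% confidence interval −0.15 to 0.34, limma adjusted p = 0.497).

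Cbr1 and Nqo2 fell in both genotypes. Cbr1 averaged 7.13 ± 0.18 in stimulated and 8.33 ± 0.04 in untreated Nos2-/- arrays, and 7.36 ± 0.06 in stimulated and 8.34 ± 0.07 in untreated WT arrays. Its log2 fold changes were −1.20 ± 0.08 in Nos2-/- (limma adjusted p = 1.7e-08) and −0.98 ± 0.08 in WT (limma adjusted p = 1.5e-07). Nqo2 averaged 7.59 ± 0.20 in stimulated and 8.35 ± 0.08 in untreated Nos2-/- arrays, and 7.63 ± 0.19 in stimulated and 8.38 ± 0.05 in untreated WT arrays. Its log2 fold changes were −0.76 ± 0.11 in Nos2-/- (limma adjusted p = 2.4e-05) and −0.75 ± 0.11 in WT (limma adjusted p = 3.1e-05). No stimulated array of Cbr1 or Nqo2 reached any untreated array of its genotype.

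Ephx1 and Akr1a1 were not called in either genotype. Ephx1 averaged 8.15 ± 0.22 in stimulated and 7.89 ± 0.19 in untreated Nos2-/- arrays, a log2 fold change of 0.26 (limma adjusted p = 0.066), and it was called when the second stimulated or the third untreated Nos2-/- array was left out, at 0.39 and 0.36. In WT arrays Ephx1 averaged 8.20 ± 0.10 when stimulated and 8.02 ± 0.05 when untreated (0.18, limma adjusted p = 0.187). Akr1a1 averaged 13.95 ± 0.02 in stimulated and 13.94 ± 0.0036 in untreated Nos2-/- arrays (0.01, limma adjusted p = 0.873). In WT arrays Akr1a1 averaged 14.06 ± 0.06 when stimulated and 13.95 ± 0.02 when untreated (0.12, limma adjusted p = 0.0858).

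**Figure D3:**
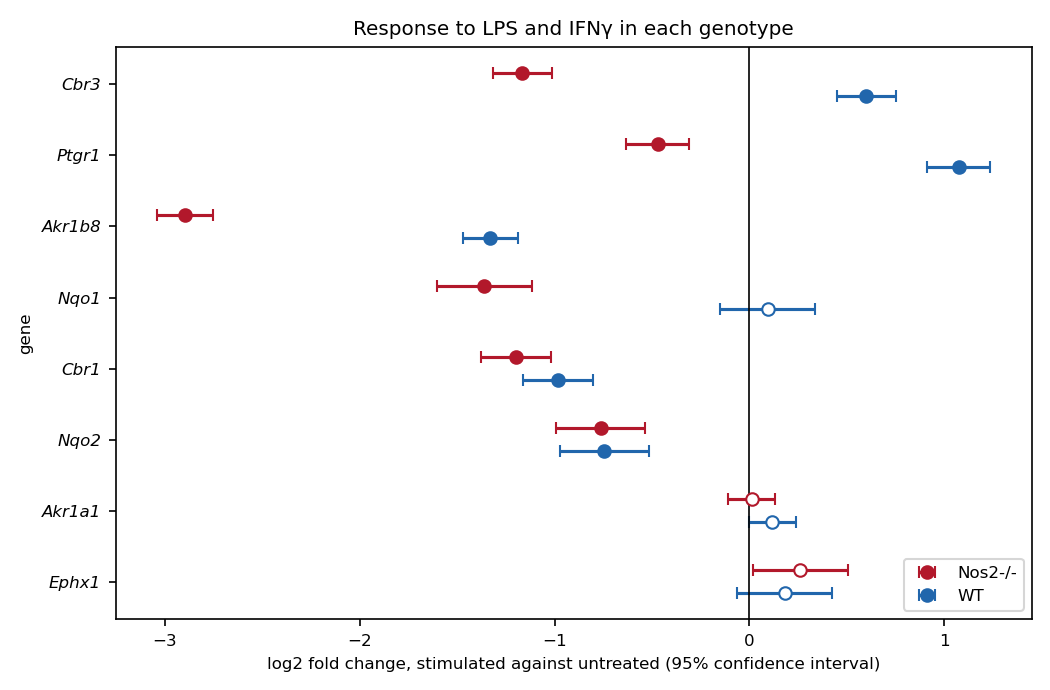
Log2 fold change of stimulated against untreated BMDMs (x axis, with 95% confidence interval) for each gene (y axis) in Nos2-/- (red, upper) and WT (blue, lower); filled points have an adjusted p under 0.05. Cbr3 and Ptgr1 lie below 0 in Nos2-/- and above 0 in WT, and the points of Nqo2 nearly coincide, at −0.76 and −0.75.

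The difference between the responses, Nos2-/- minus WT, was tested in the same model. It was called lower for 4 of 8 genes, against 0.676% of all genes, and higher for none, against 0.302%. These were Cbr3 at −1.76 ± 0.10 (SE; limma adjusted p = 8.5e-07), Akr1b8 at −1.57 ± 0.09 (limma adjusted p = 1.1e-06), Ptgr1 at −1.54 ± 0.11 (limma adjusted p = 5.0e-06) and Nqo1 at −1.45 ± 0.16 (limma adjusted p = 4.6e-04). It was not called for Cbr1 at −0.21 (95% confidence interval −0.47 to 0.04), Akr1a1 at −0.11 (−0.28 to 0.06), Nqo2 at −0.02 (−0.34 to 0.31) and Ephx1 at 0.08 (−0.26 to 0.42). This comparison shares its stimulated arrays with the comparison of the stimulated genotypes, so the pair are not independent.

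Nqo2 and Akr1a1 were read by several single-gene probe sets, and the other 6 measured genes by 1 each. The calls of Cbr3, Ptgr1, Akr1b8 and Nqo1 thus each rest on 1 probe set. Nqo2's 3 probe sets all fell on stimulation in both genotypes, at −0.76, −1.39 and −1.85 in Nos2-/- macrophages and from −0.75 to −2.52 in WT macrophages (limma, p adjusted over all 34945 single-gene probe sets). The size of the fall thus depended on the probe set, and the probe set standing for Nqo2 gave the smallest. The dimmest of them, at 4.48 ± 0.06 in stimulated Nos2-/- arrays and 4.03 ± 0.44 in stimulated WT arrays, was at 0.45 between the stimulated genotypes (95% confidence interval 0.11 to 0.79, limma adjusted p = 0.184), while the other Nqo2 probe sets were at −0.04 and 0.06. Akr1a1's 4 probe sets were at −0.11 to −0.21 between the stimulated genotypes, and none was called (limma adjusted p = 0.0832 to 0.423). In WT macrophages 3 of them were called higher on stimulation, at 0.20, 0.21 and 0.21 (limma adjusted p = 0.00967, 0.00893 and 0.00736), and the brightest, which stands for the gene, was not, at 0.12. In Nos2-/- macrophages all 4 lay between 0.01 and 0.06 and none was called. Over the 13 probe sets, 4 were called lower and 0 higher between the stimulated genotypes, against 1.54% and 1.05% of all single-gene probe sets, and none between the untreated genotypes, against 0.00286% and 0.00572%. Those 4 are the probe sets of Cbr3, Ptgr1, Akr1b8 and Nqo1, so this count repeats the gene calls. On stimulation 8 fell and 0 rose in Nos2-/- (26.9% and 24.5% of all), and 5 fell and 5 rose in WT (27.6% and 26.5%). The difference between the responses was lower for 4 and higher for 0 (0.509% and 0.283%).

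**Figure D4:**
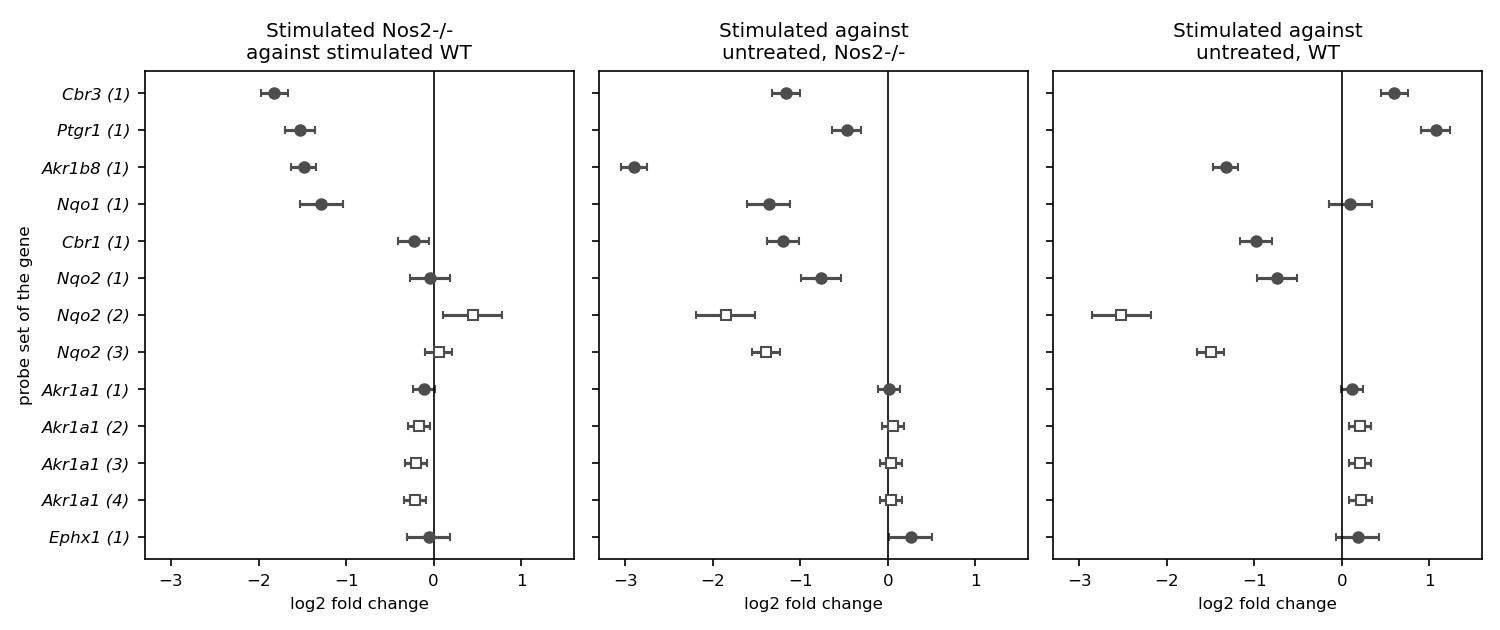
Log2 fold change (x axis, with 95% confidence interval) of all 13 single-gene probe sets (y axis, numbered within each gene) in stimulated Nos2-/- against stimulated WT and in stimulated against untreated Nos2-/- and WT BMDMs; filled circles stand for their gene and open squares are further probe sets. All 3 Nqo2 probe sets lie below 0 in both responses, and the 4 Akr1a1 probe sets lie between −0.21 and 0.21 in every panel.

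Related enzymes outside the list were counted in 6 families that hold 89 genes, of which 82 were measured. The families too were chosen with earlier results of these data known, so their contrast with the list is a description. Between the stimulated genotypes 2 of the 82 were lower, against 1.91% of all genes, and 1 was higher, against 1.03%. Their median log2 fold change was −0.04. None of 15 further aldo-keto reductases, 4 further epoxide hydrolases or 19 aldehyde dehydrogenases was called, and neither were 25 of 26 short-chain reductases, 9 of 10 medium-chain reductases and 7 of 8 flavin and biliverdin reductases.

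The called ones were Zadh2, Blvrb and Rdh10. Zadh2, a medium-chain reductase of oxidised prostaglandins, read 8.36, 8.14 and 7.99 in stimulated Nos2-/- arrays and 9.09, 9.10 and 9.15 in stimulated WT arrays (log2 fold change −0.95 ± 0.08, SE; limma adjusted p = 1.8e-05). Blvrb, which reduces biliverdin and flavins, read 11.44, 11.38 and 11.34 in stimulated Nos2-/- arrays and 12.05, 12.03 and 12.03 in stimulated WT arrays (−0.65 ± 0.06, SE; limma adjusted p = 3.8e-05). Rdh10, which oxidises retinol to retinal, read 7.98, 7.54 and 7.74 in stimulated Nos2-/- arrays and 6.99, 7.15 and 7.35 in stimulated WT arrays (0.59 ± 0.11, SE; limma adjusted p = 0.00727). None of these groups overlapped. The difference between the responses was called for Zadh2 at −0.99 (limma adjusted p = 6.0e-04) and Blvrb at −0.70 (limma adjusted p = 9.6e-04), and not for Rdh10 at 0.68 (limma adjusted p = 0.0566). In untreated BMDMs 0 of the 82 were called. At an unadjusted p under 0.05 (limma) 4 of the 82 were lower and 0 higher, against 373 lower and 355 higher of all 18193 genes.

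**Figure D5:**
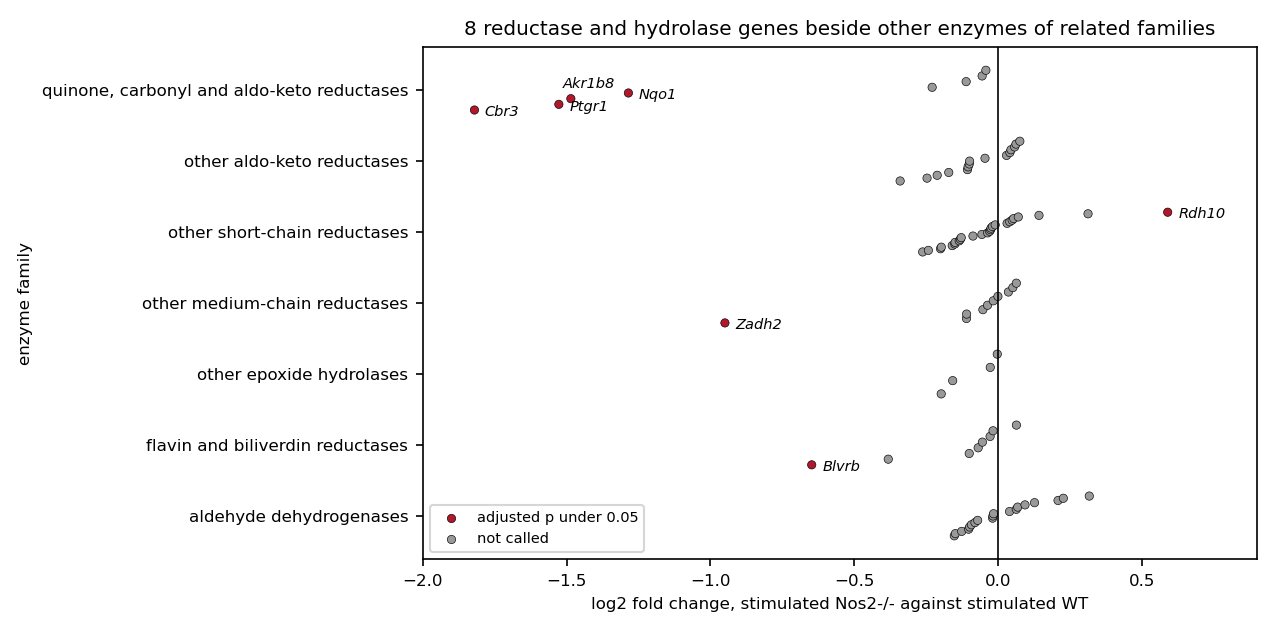
Log2 fold change in stimulated Nos2-/- against stimulated WT BMDMs (x axis) of the 8 measured genes and of 82 enzymes in 6 related families (y axis, sorted by value within each row); red marks an adjusted p under 0.05. Outside the top row the red points are Zadh2 at −0.95, Blvrb at −0.65 and Rdh10 at 0.59.

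Stimulation changed a large share of these related enzymes in each genotype. In Nos2-/- macrophages 14 of the 82 rose and 40 fell, against 26.3% and 28.2% of all genes. In WT macrophages 16 rose and 39 fell, against 29.6% and 28.4% of all genes. Among the short-chain reductases 17 of 26 fell in Nos2-/- and 18 of 26 in WT. Hpgd, which inactivates prostaglandins, fell, at a log2 fold change of −3.67 in Nos2-/- and −4.17 in WT, as did Aldh9a1, an aldehyde dehydrogenase of carnitine synthesis, at −3.0 in Nos2-/- and −2.95 in WT. The retinal reductase Dhrs3 was at −1.83 in both genotypes. Spr, which completes the cofactor tetrahydrobiopterin, was at −1.79 in Nos2-/- and −1.53 in WT, and Qdpr, which recycles it, at −1.78 in Nos2-/- and −1.81 in WT. Cyb5r1, a cytochrome b5 reductase, was at −1.93 in Nos2-/- and −1.88 in WT. The mitochondrial aldehyde dehydrogenase Aldh1b1 rose by 3.37 in Nos2-/- and 3.10 in WT on the log2 scale, and the carbonyl reductase Cbr2 by 1.90 in Nos2-/- and 1.87 in WT. The xylulose reductase Dcxr rose by 1.69 in Nos2-/- and 1.5 in WT, and Kcnab1, a potassium channel subunit with an aldo-keto reductase fold, by 1.28 in Nos2-/- and 1.02 in WT. Aldh1l1, an enzyme of folate metabolism, rose by 0.94 in Nos2-/- and 0.78 in WT, and Cryzl1 by 0.93 in Nos2-/- and 0.94 in WT. Each of these 12 was called in both genotypes (limma adjusted p at most 8.5e-05), and for none was the difference between the responses called.

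Nrf2 and Keap1 transcripts were not called between the stimulated genotypes. Nfe2l2, which encodes Nrf2, averaged 11.79 ± 0.03 in stimulated Nos2-/- arrays and 11.62 ± 0.02 in stimulated WT arrays (log2 fold change 0.18, limma adjusted p = 0.13), and Keap1 averaged 9.92 ± 0.13 in stimulated Nos2-/- arrays and 9.99 ± 0.03 in stimulated WT arrays (−0.07, limma adjusted p = 0.787). Both rose on stimulation, Nfe2l2 by 0.68 in Nos2-/- and 0.40 in WT, and Keap1 by 1.06 in Nos2-/- and 1.11 in WT (limma adjusted p at most 2.7e-05). The difference between the responses was not called for Nfe2l2 at 0.27 (limma adjusted p = 0.176) or for Keap1 at −0.05 (limma adjusted p = 0.931). These are transcript levels, and neither protein was measured on the arrays.

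The genes whose signal ran most like that of each lower gene were found by Pearson's r over the 12 arrays among 18192 others, as a description. All points share the same arrays, so r mostly follows the 4 group means. Nearest to Cbr3 were Pdlim4 (0.979), the iron exporter gene Slc40a1 (0.978) and Gclc (0.976), the catalytic subunit of glutamate-cysteine ligase. Nearest to Ptgr1 were Gclm (0.988), the modifier subunit of that ligase, Tshz1 (0.979) and the organic cation transporter gene Slc22a4 (0.973). Nearest to Akr1b8 were Creg1 (0.993), Nrp1 (0.992) and Rnf128 (0.990), and nearest to Nqo1 were the glutathione synthetase gene Gss (0.975), Afp (0.972) and Lrp8 (0.957). The nearest genes of the 4 lists were all different.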

How the data were processed

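Transcript levels were measured in 12 BMDM samples on Affymetrix whole-genome mouse expression arrays. The authors normalized the scans by RMA in Partek (version not given in the sources used here) and deposited log2 signals for 45101 probe sets. RMA quantile-normalizes arrays together and shrinks low signals toward background, so differences of dim genes can be understated. Here, 64 control probe sets were set aside, and 34945 of the remaining probe sets named 1 gene, 932 several and 9160 none in the platform annotation. The probe set with the highest mean stood for each of 18193 genes. A linear model with a mean per group was fitted to all 12 arrays (limma 3.58.1, R 4.3.3, lmFit and eBayes, two-sided). This replaces the unmoderated analysis of variance of the methods, which was run as an alternative. The model was first run on simulated data with independent noise and differences planted in the stimulated Nos2-/- group. That run checked the code and does not bear on the results above. There are 3 arrays per group, which limits the precision. Arrays were grouped by their labels, and no batch is given in the sources used here.

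The 10 genes and the family lists were chosen with earlier results of these data known. The text names all of the 10 genes with their single-gene probe sets, Nos2, Nfe2l2 and Keap1. Of the family genes it names up to 5 of the largest called rises and 5 of the largest called falls per comparison whose groups did not overlap, and for each lower gene the 3 genes with the highest correlation. Alternatives changed the arrays fitted, moderation, thresholds, scaling, filter, choice of probe set, replicate block and the array left out. RefSeq promoter windows were searched for 3 motifs.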

Additional observations from a re-analysis of the deposited data

Results flagged for a closer look

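The response to stimulation differed between the genotypes for 4 of the 8 measured genes, as tested by the difference itself (limma, adjusted over all genes). Cbr3 differed by −1.76 (Nos2-/- minus WT, adjusted p = 8.5e-07), having fallen in all 3 stimulated Nos2-/- arrays and risen in all 3 stimulated WT arrays relative to their untreated arrays. Ptgr1 differed by −1.54 (limma adjusted p = 5.0e-06) with the same opposite directions. Akr1b8 differed by −1.57 (limma adjusted p = 1.1e-06), with a fall in both genotypes. Nqo1 differed by −1.45 (limma adjusted p = 4.6e-04), with a fall in Nos2-/- and no called change in WT. Groups of 3 arrays were not screened for single outlying arrays.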

How the results depend on the processing

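Of 40 gene results (8 genes in 5 comparisons) 19 were called, and 18 of these kept their direction and their call in all 23 alternatives (22 for the difference between the responses). The exception was the fall of Ptgr1 in Nos2-/- macrophages, −0.47, which lies under the 1.5-fold minimum of the methods. Some alternatives could not move a fold change. Choice of probe set could not do so for the 6 measured genes with 1 single-gene probe set. Leaving out an array outside the groups compared could not either. Nor, for any gene, could fitting only the arrays compared, dropping moderation, an intensity trend, other thresholds, leaving out dim genes or the replicate block. Such alternatives could change a call but not a direction. Between the stimulated genotypes the log2 fold change ran from −1.89 to −1.74 for Cbr3, −1.57 to −1.47 for Ptgr1, −1.53 to −1.43 for Akr1b8 and −1.44 to −1.18 for Nqo1 over all alternatives. These ranges come only from scaling and from leaving out a stimulated array. The fall of Nqo2 was larger as the mean of its probe sets, at −1.34 in Nos2-/- and −1.59 in WT. The count of genes higher on stimulation in Nos2-/- macrophages was 0, and became 1 (Ephx1) with an intensity trend, quantile normalization, dim genes left out or the replicate block, and 0 to 1 with an array left out. The labels do not say whether replicate numbers pair the samples. Over all genes, 2 of 18 same-numbered pairs of arrays had deviations from their group means correlated above 0.1. The range was −0.26 to 0.211, against −0.166 to 0.274 for other pairs. Deviations from a mean of 3 arrays are not independent, so these correlations cannot decide whether samples were paired. The block changed no other call among the 40.

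Results that changed sign were all uncalled, with values close to 0 in the main fit, and the cause was not tested. With arrays centred on their median, the Nos2-/- response of Akr1a1 became −0.013 and the difference between the responses of Nqo2 became 0.0081. With quantile normalization, the Nos2-/- response of Akr1a1 became −0.041, and untreated Nos2-/- against untreated WT became 0.0094 for Cbr1 and 0.0013 for Nqo2. With the mean of its probe sets, Nqo2 became 0.15 between the stimulated genotypes and 0.25 for the difference between the responses. The dimmest of these probe sets was at 0.45 and 0.67 in the same comparisons, and neither was called. With 1 array left out at a time, stimulated Nos2-/- against stimulated WT ran from −0.13 to 0.064 for Nqo2 and −0.13 to 0.073 for Ephx1, and untreated Nos2-/- against untreated WT ran from −0.064 to 0.019 for Nqo2, −0.0521 to 0.0200 for Cbr1, −0.016 to 0.00047 for Akr1a1 and −0.0503 to 0.0919 for Ptgr1. The difference between the responses ran from −0.107 to 0.0897 for Nqo2 and −0.0071 to 0.21 for Ephx1. Akr1a1 in WT was called higher under 4 alternatives and Ephx1 in WT under 1. Centring moved no array median by more than 0.0436. Under quantile normalization the WT response of Nqo1 went from 0.09 to 0.27, not called, and that of Ephx1 from 0.18 to 0.36, called. The WT responses of Cbr1 and Nqo2 went from −0.98 to −0.79 and from −0.75 to −0.56, and that of Akr1a1 from 0.12 to 0.08. The Nqo1 signal in stimulated Nos2-/- arrays, near the array medians, and the Akr1a1 signal, near the highest value on the arrays, limit what their differences can show.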
